A study of Mus musculus with 15 samples.

Results

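The testis-specific serine kinases are a small family of protein kinases whose messenger RNAs are made almost entirely in developing sperm. The 5 genes described here, Tssk1, Tssk2, Tssk3, Tssk4 and Tssk6, were taken by their symbols from the gene annotation of the count matrices, where they are 5 of 32285 genes. A further gene with a family name, Tssk5, was measured as one of the partner genes given further on.

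After meiosis the haploid germ cell, or spermatid, is remodelled without dividing: an acrosome and a tail form, histones are exchanged for protamines, and the nucleus is compacted until transcription stops. Several Tssk kinases act in this remodelling and remain in the mature sperm. TSSK1 and TSSK2 bind and phosphorylate the substrate TSKS. TSSK3 is activated by the kinase PDK1, the product of Pdpk1. TSSK4 phosphorylates ODF2, a protein of the outer dense fibres of the tail. TSSK6 is made active with the help of the HSP90 cochaperone TSACC and is needed for the exchange of histones for protamines. Male mice lacking single or paired members of the family are known to be subfertile or sterile.

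The data are 10x Genomics single-cell RNA-seq of dissociated testis from adult male DBA/2J mice, with 15 libraries in 5 groups of 3 and 1 mouse to a library. JQ1, a small molecule that occupies the bromodomains of BRDT and the other BET proteins, was injected into the peritoneum daily for 3 weeks at 50 mg/kg, and since it is given to the whole animal it reaches somatic as well as germ cells. Group T was collected directly after JQ1 and group VC-T directly after vehicle, both at 10 weeks of age, whereas group R was collected 6 weeks after the last dose of JQ1 and group VC-R 6 weeks after the last dose of vehicle, both at 16 weeks. Group UC was untreated, without injections, and collected at 15 weeks. A difference of T from UC thus cannot be told apart from the differences in age and injections. Only VC-T matches T in both.

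The members lie at 4 places in the genome (GRCm38, GENCODE vM21). Tssk1 (ENSMUSG00000041566; chromosome 16, 17894223-17897922, plus strand) and Tssk2 (ENSMUSG00000045521; chromosome 16, 17898637-17900024, plus strand) are neighbours of 1 exon each, with 714 bases between them. Tssk1 lies inside Dgcr2, which is on the opposite strand, so 3700 bases overlap, of which 63 are exonic in Dgcr2. Tssk3 (ENSMUSG00000000411; chromosome 4, 129489014-129491022, minus strand) has 2 exons and Tssk4 (ENSMUSG00000007591; chromosome 14, 55650184-55652539, plus strand) has 7 coding transcripts. Tssk6 (ENSMUSG00000047654; chromosome 8, 69902184-69903518, plus strand) has 1 exon and overlaps Yjefn3 by 529 bases and Ndufa13 by 375 bases on the opposite strand. The coding sequences of Tssk1 and Tssk2 were 83.5% identical over 1036 aligned bases, and every other pair of members was 63.5% to 69.0% identical. Over the last 300 bases of the transcripts, where a 3′ assay reads, the best local alignment of Tssk1 with Tssk2 covered only 32 bases at 81.2% identity.

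Just before their starts the neighbours Tssk1 and Tssk2 also resemble each other, and 82 of 102 aligned bases, or 80.4%, were identical there. Both stretches hold the 8-base word TGACTTCA, which was picked out after the sequences were seen and is in capitals, also where it stands on the other strand. The 30 bases from the word onward, on the strand of the gene, are shown because this is where the promoters of the closest pair are alike (RefSeq, GRCm38.p6).
Tssk1, chr16:17894155-17894184: TGACTTCAcccacTGAAGTCAcctgggaga
Tssk2, chr16:17898579-17898608: TGACTTCAttcgctggtcacttggtgacag
Counted from the RefSeq starts, which for Tssk1 lies upstream of the GENCODE start given above, the Tssk1 stretch ran from 48 to 19 bases before the start and the Tssk2 stretch from 58 to 29 bases before it. The word was in the promoter windows of 2 of the 5 members (250 bases before to 50 after the start) and in 1.31% of 32851 such windows, on either strand. The full CRE word TGACGTCA, to which CREM and CREB bind, was in no member and in 1.55% of windows. Its shorter form TGACG was in Tssk6 alone of the 5 and in 17.8% of windows. TATAAA was in no member and in 12.4% of windows, and CCAAT was in Tssk3 and Tssk4 and in 33.8% of windows. These windows are set by the RefSeq start alone. By GENCODE the 250 bases before it were wholly exon of Tssk3 itself for Tssk3 and wholly exon of Ndufa13 for Tssk6, and held 138 exonic bases of Dgcr2 for Tssk1 and 110 for Tssk2.

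The libraries held 9673587 to 98724982 unique molecular identifiers (UMIs), and 72362 cells passed the filters, of which 67221 were germ cells. Clusters were named from fixed markers, without any Tssk gene: 25086 cells were spermatid-like, 24114 spermatozoa-like, 15888 spermatocyte-like and 2133 spermatogonia-like. Acrv1, an acrosomal gene, had a UMI in 63.9% of spermatid-like cells, and Smcp, of the sperm mitochondrial capsule, in 100% of spermatozoa-like cells. Both genes were among the markers used for naming, so these shares do not test the names. Spermatozoa-like cells were 0.0265% to 0.423% of germ cells in the T libraries and 28.1% to 59.3% in 11 of the 12 others. The remaining library, VC-T 1, labelled as a vehicle control, had 1 such cell, or 0.0182%, and so stood with the T libraries. Among spermatid-like cells, 5.80% to 8.11% in T and 4.74% in VC-T 1 lay in the later bins of the germ cell order described below, from bin 11 on, against 37.2% to 60.2% in the others. Tests against VC-T are therefore given with and without VC-T 1. Pairs of libraries shared 0 to 46 cell barcodes, at most 0.554% of the smaller library.

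RNA released from broken cells enters every droplet, and Tssk6 UMIs were found in cells that should not make it. In the 8 control libraries other than VC-T 1, 21.1% of spermatogonia-like cells had a Tssk6 UMI (189 of 894, exact binomial 95% interval 18.5% to 24.0%, median depth 2224 UMIs). In T the share was 2.03% (17 of 837, 1.19% to 3.23%, median depth 1452 UMIs). Sertoli-like cells, the somatic support cells, had a Tssk6 UMI in 32.6% of cases in the controls (105 of 322, 27.5% to 38.0%, median depth 2062 UMIs) and in 1 of 21 in T (4.76%, 0.12% to 23.8%, median depth 1875 UMIs). Among spermatogonia-like cells of the controls, Tssk2 was seen in 21.0%, Tssk1 in 10.5%, Tssk3 in 10.1% and Tssk4 in 2.91%. Levels in the earliest germ cells are taken here as the background, and the part of free RNA in them was not tested. In T, where late cells were almost missing, the share was lower for Tssk2 (11.4%) and Tssk3 (2.51%) as well as Tssk6. It was not lower for Tssk1 (11.0%) and Tssk4 (4.30%). In CPM, the scaled level defined below, these 2 were higher in spermatogonia-like cells of T than of the 8 controls. Tssk1 was at 71.8 against 37.5 CPM and Tssk4 at 25.6 against 9.37 CPM, pooled over cells. The intervals cover counting error alone.

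The members peaked at different places in the order of germ cell development, although the peak ranges of Tssk6, Tssk3 and Tssk2 overlapped. The order is a diffusion pseudotime over all germ cells, divided into 20 bins with equal numbers of cells, and a level is given as CPM, the UMIs of a gene scaled to a fixed total per library and cell class, each gene being compared with itself only. In the 8 control libraries other than VC-T 1, Tssk4 was earliest, with its highest bin at 8 in the median library (range 8 to 9) and a peak of 311 ± 46.1 CPM (mean ± SD, n = 8). Tssk1 came next, with a median peak bin of 12 (9 to 13) at 820 ± 60.6 CPM. Tssk6 peaked in bin 15 (14 to 17) at 2174 ± 432 CPM, Tssk3 in bin 15.5 (14 to 18) at 800 ± 114 CPM, and Tssk2 in bin 19 (14 to 20) at 1644 ± 154 CPM.

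The first bin at 50% of the peak or more parted the members into early and late. It was bin 6 to 7 for Tssk4, 7 to 8 for Tssk1 and 9 to 12 for Tssk2, while Tssk3 and Tssk6 both crossed it in bin 13 or 14. The ranges of Tssk3 and Tssk6 coincide, so these 2 genes cannot be put in order, and the neighbours Tssk1 and Tssk2 did not overlap in this measure. In the last bin, bin 20, the 3 UC libraries still held 1562, 1664 and 1594 CPM of Tssk2 and 690, 728 and 713 CPM of Tssk3. Tssk1 was at 373, 398 and 410 CPM there, below its own peak in every one of these libraries.

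**Figure D1:**
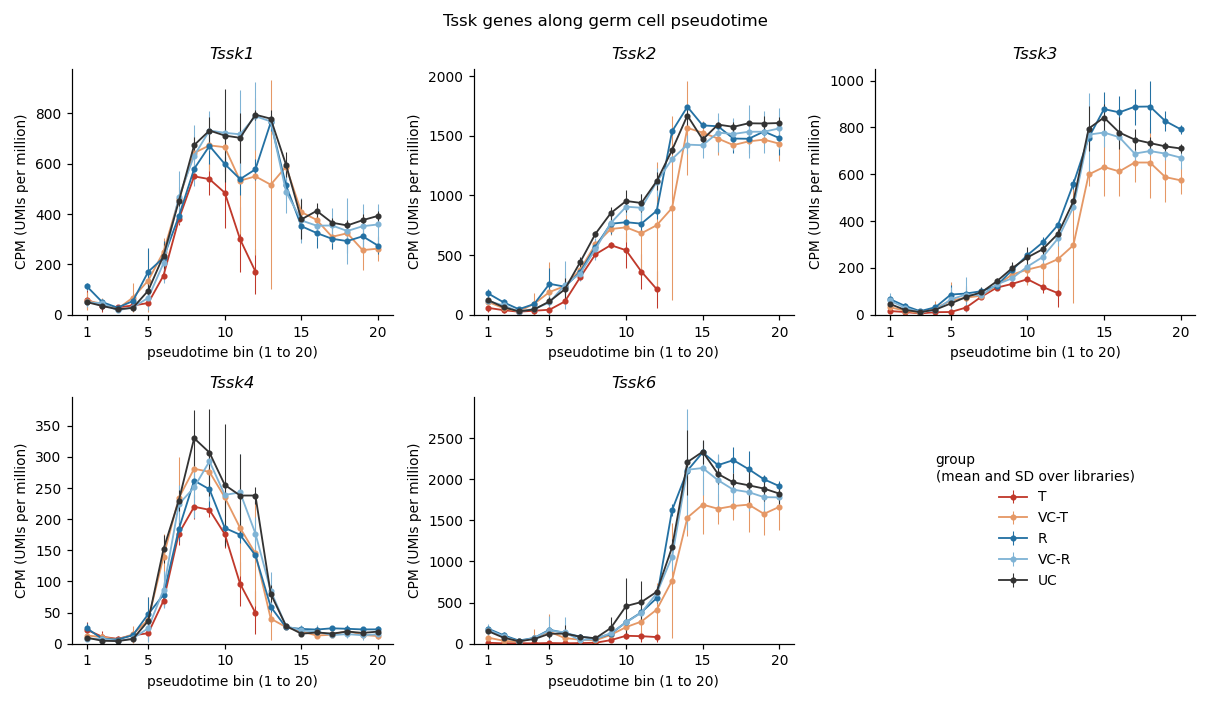
Level of each Tssk gene (vertical axis, CPM, linear from 0) along 20 bins of germ cell pseudotime (horizontal axis), with points and bars for the mean and SD of the libraries of a group that had at least 20 cells in the bin. Tssk4 peaks first, around bin 8, and Tssk6 and Tssk3 rise latest, while the lines of T stop at bin 12.

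By cell class Tssk4 and Tssk1 were again the early members in the 3 UC libraries. Tssk4 was at 231 ± 18.3 CPM in spermatid-like cells (mean ± SD, n = 3) and at only 18.9 ± 3.75 CPM in spermatozoa-like cells, which overlapped its 15.1 ± 16.4 CPM in spermatocyte-like cells. Tssk1 was also highest in spermatid-like cells, at 719 ± 27.7 CPM, with 399 ± 20.2 CPM in spermatozoa-like cells. The other 3 members were highest in spermatozoa-like cells: Tssk2 at 1581 ± 24.2 CPM against 954 ± 60.0 CPM in spermatid-like cells, Tssk3 at 764 ± 42.3 against 272 ± 14.2 CPM, and Tssk6 at 2054 ± 172 against 444 ± 17.6 CPM. For all 5 genes the spermatocyte-like and spermatogonia-like levels of UC overlapped, as with Tssk6 at 159 ± 161 and 167 ± 45.9 CPM. The spermatocyte-like value of Tssk6 was therefore not above the background in spermatogonia-like cells.

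The genes with the most similar profile over the 20 bins of UC were found among 8262 genes by Pearson's r of log2(CPM + 1), as a description over bins that share libraries. Tsks, the shared substrate of TSSK1 and TSSK2, was first for Tssk2 (r = 0.998), along with Znrf4 (0.998) and Fam71e1 (0.997). For Tssk3 they were Smcp and Gsg1 (both 0.998), followed by Akap4 (0.996), the main protein of the fibrous sheath of the tail. Prkar2a, a regulatory subunit of protein kinase A, was first for Tssk6 (0.997), before Tppp2 (0.996). Tssk4 went with Tmem225 (0.994) and Spaca3 (0.990), an acrosomal lysozyme-like gene, and Tssk1 with BC049762 (0.998) and Sh3d21 (0.994). Between members the likeness was highest for Tssk2 with Tssk3 (0.977) and lowest for Tssk4 with Tssk6 (-0.0772), and it was 0.908 for the neighbours Tssk1 and Tssk2.

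Over whole libraries, less was left after JQ1 of the 3 late members than of Tssk1, and less of Tssk1 than of Tssk4. Among the 3 late members the most was left of Tssk2, whose median peak bin was the latest. Tssk6 was at 33.6, 15.2 and 22.2 CPM in the T libraries against 960, 1119 and 1026 CPM in UC, or 0.0229 of the UC mean. Tssk3 was at 70.5, 49.1 and 60.5 CPM in T against 372, 430 and 385 CPM in UC. The groups were far apart for both genes.

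Tssk2 was at 261, 193 and 213 CPM in T and at 919, 1001 and 903 CPM in UC, and Tssk1 at 263, 200 and 219 CPM in T and at 385, 413 and 395 CPM in UC. For these 4 genes no T library reached a UC library, and the log2 differences of the means were -5.45 for Tssk6, -2.72 for Tssk3, -2.08 for Tssk2 and -0.81 for Tssk1. Each exact permutation p, two-sided, was 0.1, the smallest that 3 against 3 allows. Tssk4, the earliest member, was at 102, 80.2 and 91.0 CPM in T and at 79.6, 90.4 and 88.3 CPM in UC, and these groups overlapped (log2 difference 0.08, exact permutation p = 0.4). Fewer cells of a stage and less RNA per cell cannot be told apart in such totals. VC-T 1 held 22.7 CPM of Tssk6, whereas VC-T 2 and VC-T 3 held 807 and 604 CPM.

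**Figure D2:**
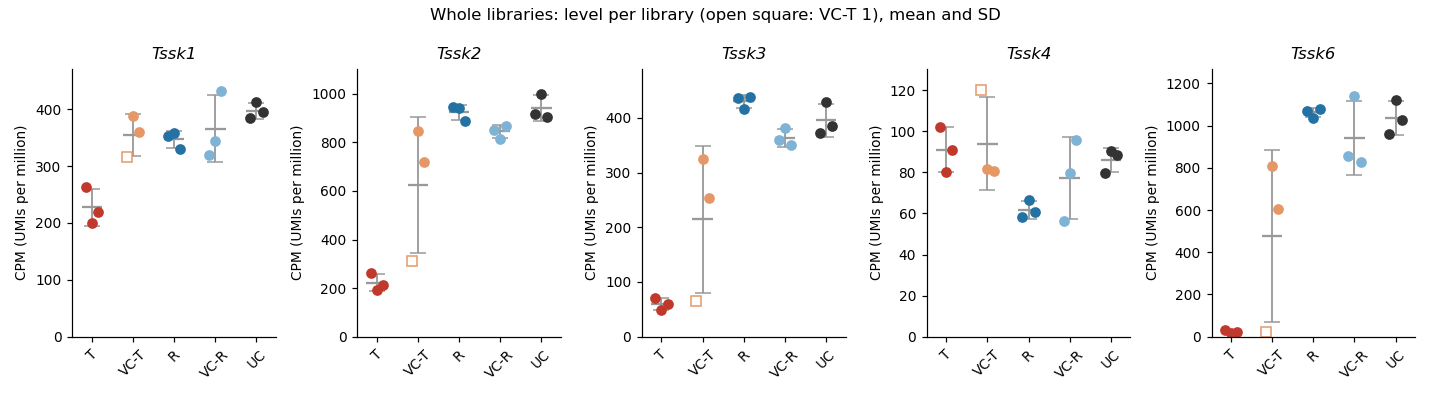
Level of each Tssk gene in whole libraries (vertical axis, CPM over all barcodes, linear from 0) by group, with 1 point per library, an open square for VC-T 1, and the mean and SD in grey. Tssk6 lies near 0 in the 3 T libraries and in VC-T 1, and the T points of Tssk4 overlap those of UC.

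Within spermatid-like cells, which all libraries hold, 3 members fell in T against UC: Tssk6, Tssk3 and Tssk2. Counts were summed per library and tested with edgeR's quasi-likelihood test, with p-values adjusted over all genes tested, and a gene is called here when its adjusted p was below 0.05 and its log2 difference was larger than 1 in size. These 3 calls of 5 members, all lower, compare with 16.5% of the 13588 genes tested that were called lower. The median log2 difference was -1.15 over the members and 0.06 over all genes. The p-values measure the spread between mice as it shows in 1 library each.

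Tssk6 was at 55.7, 33.1 and 26.8 CPM in the T libraries against 423, 456 and 451 CPM in UC, with no overlap. The log2 difference was -3.79 (SE 0.17, 95% interval -4.16 to -3.42, adjusted p = 2.31e-10), or 13.8-fold lower. Tssk3 was at 139, 131 and 141 CPM in T and at 267, 288 and 261 CPM in UC, a log2 difference of -1.35 (SE 0.08, -1.52 to -1.17, adjusted p = 3.01e-09). The 3 T libraries lay close together and well under UC for this gene too. Thinned to 1000 UMIs a cell, Tssk6 was seen in 3.50% ± 1.07 of spermatid-like cells in T (mean ± SD, n = 3) and in 31.7%, 29.4% and 29% in the UC libraries. Unthinned, the shares were 9.47% ± 3.30 in T and 56.9% ± 4.17 in UC.

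Tssk2 was at 546, 549 and 550 CPM in T and at 932, 1022 and 909 CPM in UC, a log2 difference of -1.15 (SE 0.07, adjusted p = 6.04e-09). Tssk1, its neighbour, was at 574, 569 and 573 CPM in T and at 715, 749 and 694 CPM in UC. Its log2 difference of -0.68 (SE 0.07, -0.83 to -0.54, adjusted p = 7.63e-07) was within the size threshold, although no T library reached UC. Tssk4 was at 227, 236 and 245 CPM in T and at 211, 246 and 235 CPM in UC, so its levels overlapped. After scaling by edgeR's library factors its log2 difference was -0.33 (SE 0.08, -0.50 to -0.15, adjusted p = 0.00338).

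**Figure D3:**
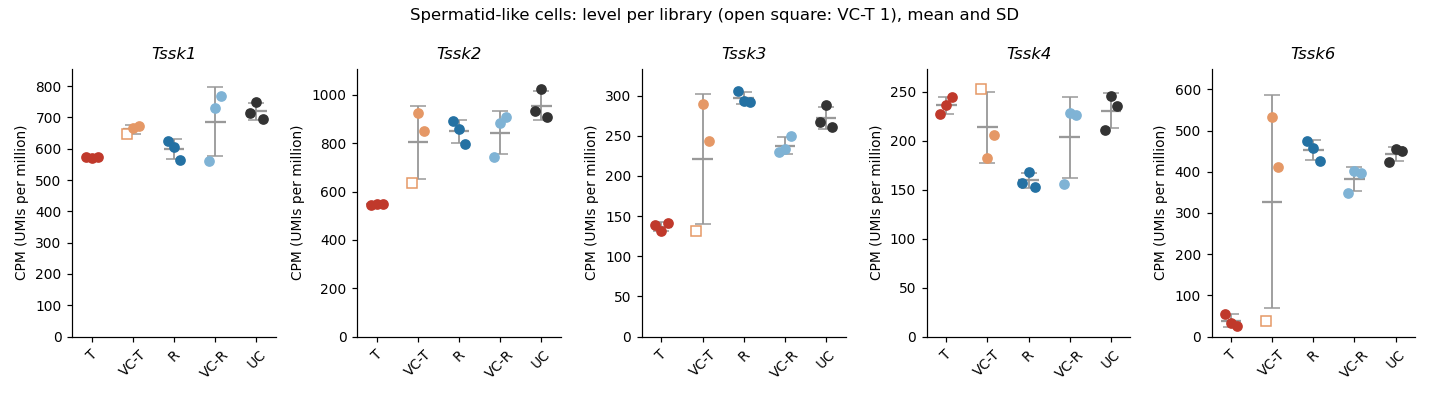
Level of each Tssk gene in spermatid-like cells (vertical axis, CPM, linear from 0) by group, with 1 point per library, an open square for VC-T 1, and the mean and SD in grey. The T libraries sit between 26.8 and 55.7 CPM for Tssk6, where all UC libraries are at 423 or more, while VC-T 1 lies with the T libraries for Tssk3 and Tssk6.

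Spermatid-like cells of T were mostly early ones, so the same comparison was made inside narrow steps of pseudotime. Tssk6 climbed from bin to bin in both groups and was lower in T at each: 12.4 ± 0.706 against 51.7 ± 17.8 CPM in bin 8, 55.3 ± 10.3 against 120 ± 13 CPM in bin 9, and 130 ± 48.3 against 266 ± 4.68 CPM in bin 10 (mean ± SD, n = 3). In bin 12 Tssk6 was at 284 ± 11.6 CPM in the 2 T libraries with enough cells and at 621 ± 78.5 CPM in UC. The T libraries held 183, 118 and 88.0 CPM in bin 10, all below the UC libraries at 271, 265 and 262 CPM. The background of free RNA moves the same way, and in bin 8 the UC level of 51.7 CPM of Tssk6 was below the 167 ± 45.9 CPM of UC spermatogonia-like cells. The UC levels in bins 8 and 9 were thus below the mean of UC spermatogonia-like cells. Depth differed, with medians of 4976 and 4697 UMIs for UC germ cells in bins 8 and 9 against 2150 in bin 1. Whether the levels in bins 8 and 9 stood above free RNA at their own depth was not tested. Spermatogonia-like cells of T, pooled, held only 10.9 CPM of Tssk6. The part of this difference in free RNA in the gap at bin 10 was not tested.

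For the other 4 members the gap inside a bin was smaller in proportion up to bin 10. Tssk3 was at 225 CPM in T and 237 CPM in UC in bin 10, and Tssk4 at 255 and 300 CPM. Tssk1 was at 680 and 825 CPM in bin 10, and Tssk2 at 768 ± 95 and 1003 ± 57.5 CPM. In bin 12, where the 2 T libraries used had 103 spermatid-like cells, Tssk1 was at 427 ± 131 CPM in T and 820 ± 12.4 CPM in UC, and Tssk2 at 569 and 1147 CPM. Depth differed as well, and cells of T in bin 10 were shallower than those of UC, with 2621 against 4646 UMIs as the median of the library medians.

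**Figure D4:**
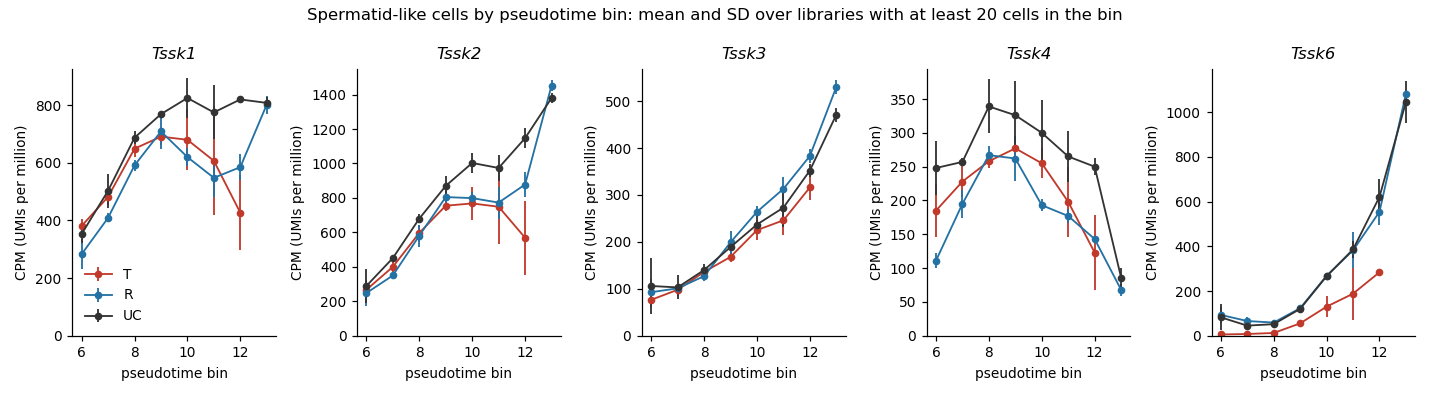
Level of each Tssk gene in spermatid-like cells (vertical axis, CPM, linear from 0) by pseudotime bin (horizontal axis) in T, R and UC, as the mean and SD of libraries with at least 20 cells in the bin. For Tssk6 the T points stay below those of UC in every bin shown, while R and UC run close together; for Tssk4 the R points lie below UC from bin 8 on.

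When the same number of cells was drawn from every library in each bin, only Tssk6 was still called in T against UC, where 3.89% of 10136 genes were called. Its log2 difference was -1.48 (SE 0.20, -1.90 to -1.06, adjusted p = 3.30e-05). Estimates for Tssk2, Tssk3 and Tssk1 were smaller in size than over the whole class, at -0.39 (adjusted p = 0.000772), -0.33 (0.0139) and -0.31 (0.00326), while that of Tssk4 was larger, at -0.45 against -0.33 (adjusted p = 0.000692). With an estimate of free RNA subtracted from all spermatid-like cells and no matching, Tssk6 was again the 1 call, at -3.20 (adjusted p = 0.000556), and Tssk2 and Tssk3 were at -0.75 and -0.86. That estimate was 14.8% to 41.1% of UMIs in the T libraries and 7.17% to 14.7% in UC, so more was subtracted from T. In T it rested on only 71 to 465 UMIs of late transcripts in spermatogonia-like cells. Matching and subtraction were not combined, so the part of free RNA in the matched value was not tested. The late spermatid transcripts Prm2, Prm1, Tnp2 and Tnp1, for the protamines and transition proteins, moved with Tssk6 in the whole class: 7 of the 8 genes of that list were called lower, led by Prm2 at -6.33. On matched cells Prm2 at -3.25, Prm1 at -3.12, Tnp2 at -2.35 and Tnp1 at -1.54 were still called. Their part in the Tssk6 result was not tested.

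**Figure D5:**
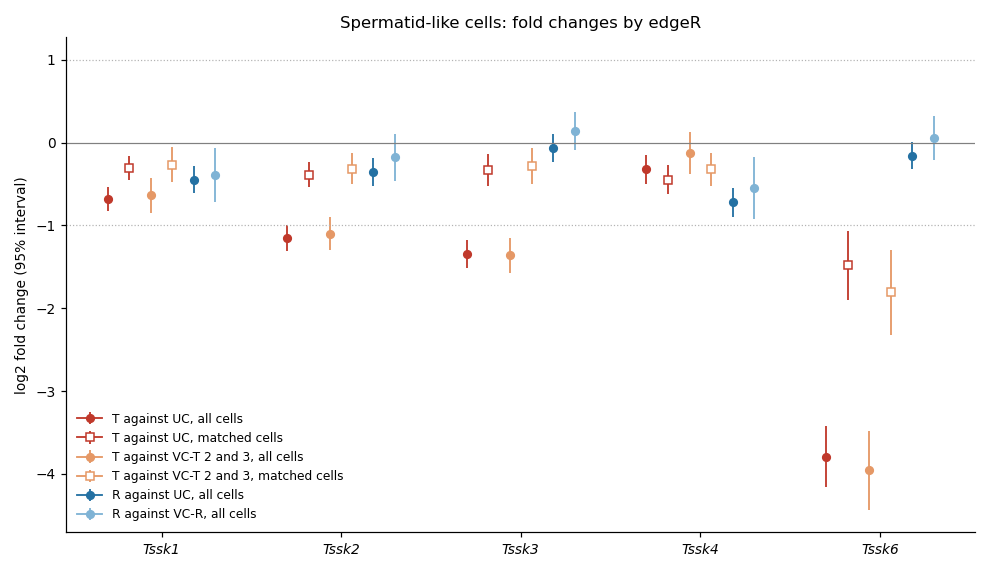
Log2 difference of each Tssk gene with its 95% interval (edgeR) in 6 comparisons, with open squares for cells matched on pseudotime and a line at 0. Tssk6 in T against UC moves from -3.79 to -1.48 on matching, and the R comparisons lie near 0 for Tssk3 and Tssk6.

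Against the age-matched vehicle group no member was called in spermatid-like cells, as for all genes: 0% of 13895 genes were called by edgeR, with 3929 genes and 4 members at an unadjusted p below 0.05. DESeq2 called 1512 genes, or 5.93%, and 2 members, Tssk3 at -1.01 (adjusted p = 0.0402) and Tssk6 at -3.46 (adjusted p = 0.0136). Tssk6 was at 36.9 CPM in VC-T 1, inside the range of T, and at 533 and 411 CPM in VC-T 2 and VC-T 3. Tssk3 was split in the same way, at 131 against 289 and 243 CPM. By edgeR the log2 difference of Tssk6 was -3.48 (SE 0.94, -5.69 to -1.26, adjusted p = 0.113) and that of Tssk3 was -1.04 (SE 0.35, -1.87 to -0.21, adjusted p = 0.126).

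Without VC-T 1, 3 members were called by edgeR beside 21.6% of genes: Tssk6 at -3.96 (adjusted p = 7.43e-08), Tssk3 at -1.36 (4.23e-07) and Tssk2 at -1.10 (1.62e-06). Tssk1 was at -0.64 (0.000219) and Tssk4 at -0.13 (0.385). Matching the cells of VC-T 2 and VC-T 3 to those of T on pseudotime, which was added after the data were seen, left Tssk6 at -1.81 (adjusted p = 0.00112) as the only called member, beside 3.70% of genes. The others were between -0.27 and -0.32.

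In spermatocyte-like cells the members were no higher than in spermatogonia-like cells, and Tssk6 differed most. Tssk6 was at 9.96, 3.62 and 6.23 CPM in T and at 345, 60.1 and 72.5 CPM in UC. No T library overlapped UC, but UC 1 stood far above the other 2, as it did for Prm2 with 9188 CPM against 1593 and 2208 CPM. No member was called in T against UC by edgeR, beside 0.938% of 12361 genes, with 3 members at an unadjusted p below 0.05, while DESeq2 called Tssk6 alone (-4.75, adjusted p = 1.89e-05), beside 1.97% of genes. By edgeR Tssk6 was at -4.75 (SE 0.87, -6.82 to -2.68, adjusted p = 0.0555), and without UC 1 it was called at -3.37 (adjusted p = 0.000125), beside 3.31% of genes.

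Of the 10 comparisons of a cell class between groups, this was the only one in which every same-numbered pair of libraries had a correlation above 0.1. Only 1 T library correlated best with the UC library of its own number, and the labels pair no T mouse with a UC mouse. With the replicate number as a block, Tssk6 at -4.56 (adjusted p = 0.000295), Tssk3 at -2.29 (0.0036) and Tssk2 at -1.81 (0.00594) were called, beside 4.02% of genes. With cells matched on pseudotime Tssk6 alone was called, at -3.69 (adjusted p = 8.37e-10), beside 3.09% of genes. Against VC-T no member was called in spermatocyte-like cells, beside 0.196% of 13249 genes, with 1 member at an unadjusted p below 0.05 and none called by DESeq2, beside 0.695% of genes. Tssk6 was at -2.38 there (adjusted p = 0.220), and without VC-T 1 it was called at -2.90 (0.000516), beside 4.75% of genes. As the share of spermatogonia-like cells with a Tssk6 UMI differed in the same direction, these values are not read as a change within spermatocytes.

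The few spermatozoa-like cells of T, 18 in all, held UMIs of all 5 members. Tssk6 was seen in 17 of the 18 (94.4%, exact binomial 95% interval 72.7% to 99.9%) with 60 UMIs, or 2008 CPM, against 97.8% of cells and 1952 CPM in the 8 controls. Tssk2 was at 1305 CPM (39 UMIs) against 1531 CPM, Tssk3 at 636 (19 UMIs) against 716 CPM, and Tssk1 at 402 (12 UMIs) against 379 CPM. Tssk4 was at 100 CPM in T, from only 3 UMIs, against 18.4 CPM. With so few cells, pooled over 3 libraries, no test was made.

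At 6 weeks after the last dose Tssk3 and Tssk6 did not pass the test against UC in spermatid-like cells. In whole libraries Tssk6 was at 1071, 1038 and 1079 CPM in R, within the 960 to 1119 CPM of UC (exact permutation p = 0.6). In spermatid-like cells no member was called in R against UC by edgeR or DESeq2, beside 2.05% of genes by DESeq2 and 5.43% of 15294 genes by edgeR, of which 817 were higher and 14 lower in R. Tssk6 was at 475, 457 and 426 CPM in R, overlapping UC, with a log2 difference of -0.16 (95% interval -0.32 to 0.00, adjusted p = 0.118). Tssk3, at 306, 293 and 292 CPM in R, lay above the UC libraries before scaling by edgeR's factors and was at -0.06 after it (-0.23 to 0.10, adjusted p = 0.563). Within pseudotime bins 8 to 13 Tssk6 ran through 58.9, 123, 268, 382, 554 and 1082 CPM in R and 51.7, 120, 266, 386, 621 and 1045 CPM in UC.

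Tssk4, Tssk1 and Tssk2 were lower in R than in UC in these cells, by less than the size threshold, and were the 3 members at an unadjusted p below 0.05. Tssk4 was at 157, 168 and 153 CPM in spermatid-like cells of R, all below UC at 211, 246 and 235 CPM, with a log2 difference of -0.72 (SE 0.09, -0.90 to -0.55, adjusted p = 1.48e-06). Tssk1 was at -0.45 (adjusted p = 0.000122) and Tssk2 at -0.36 (adjusted p = 0.00137). On cells matched on pseudotime Tssk4 was at -0.60 (adjusted p = 1.10e-08), Tssk1 at -0.25, Tssk2 at -0.13, and Tssk3 and Tssk6 both at 0.10. Within bins 8 to 12 Tssk4 ran through 267, 262, 193, 177 and 143 CPM in R and 339, 326, 300, 265 and 250 CPM in UC, so R was lower in each. In whole libraries Tssk4 was at 61.7 ± 4.32 CPM in R and 86.1 ± 5.74 CPM in UC (n = 3 each, no overlap, exact permutation p = 0.1). Spermatid-like cells of R in bin 10 had 1254 UMIs against 4646 in UC, as the median of the library medians. With only cells of at least 2000 UMIs, Tssk4 was at -0.60 (edgeR adjusted p = 0.000579), Tssk1 at -0.31 (0.0225) and Tssk2 at -0.23 (0.0946). All 3 were smaller in size than with all cells. Depth above that limit was not matched, and its part in the result was not tested.

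Against VC-R, which matches R in age and injections, no member was called in spermatid-like cells by edgeR or DESeq2, beside 0.781% of genes by DESeq2 and 1.30% of 15368 genes by edgeR, with 2 members at an unadjusted p below 0.05. Tssk4 was at 156, 228 and 226 CPM in VC-R, so 1 vehicle library lay within R, and its log2 difference was -0.54 (adjusted p = 0.0770). Its size hung on which vehicle library was left out. Without VC-R 1 Tssk4 was at -0.73 (edgeR adjusted p = 2.11e-11), Tssk1 at -0.54 (1.59e-08) and Tssk2 at -0.30 (0.000806). Without VC-R 2 they were at -0.42 (0.202), -0.32 (0.275) and -0.12 (0.635). Without VC-R 3 they were at -0.46 (0.240), -0.29 (0.334) and -0.12 (0.672). Tssk3 and Tssk6 were at 0.14 and 0.06 with all libraries.

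The effect at the end of dosing and the effect 6 weeks later were also compared directly, as T less VC-T against R less VC-R in spermatid-like cells. Cells were not matched on pseudotime for this, so the differing stage mix of the groups stays in it. Tssk6 was the only member called, with a log2 interaction of -3.40 (SE 0.95, -5.47 to -1.32, edgeR adjusted p = 0.0481), beside 7.02% of 15489 genes. Without VC-T 1, a setting added after the data were seen, Tssk6 was at -3.90 (adjusted p = 1.93e-08) and Tssk3 at -1.38 (adjusted p = 1.49e-06), both called, beside 25.7% of genes, while Tssk2 was at -0.80 (0.00131), Tssk4 at 0.53 (0.0755) and Tssk1 at -0.13 (0.620).

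In spermatozoa-like cells the levels of the late members overlapped between R and UC. Tssk6 was at 2175, 2104 and 2302 CPM in R and at 1870, 2082 and 2212 CPM in UC, a log2 difference of -0.00 (95% interval -0.16 to 0.15). Tssk3 was at 0.01 and Tssk2 at -0.08. No member was called by edgeR or DESeq2, beside 0.513% of genes by DESeq2 and 2.10% of 12421 genes by edgeR, with 2 members at an unadjusted p below 0.05, Tssk1 at -0.19 (adjusted p = 0.0639) and Tssk4 at 0.31 (0.0666). Against VC-R no member was called either, beside 0% of genes, with 1 member and 1986 genes at an unadjusted p below 0.05 and no call by DESeq2.

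In spermatocyte-like cells R gave no called member against UC or VC-R by edgeR or DESeq2, beside 0% of genes in each by edgeR. Against UC 0 members and 1095 genes had an unadjusted p below 0.05, and against VC-R 1 member and 839 genes, with 0 and 1 genes called by DESeq2. The estimates against UC were between -1.19 and -0.65 and turned to 0.12 to 0.70 without UC 1.

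The partners and substrates of the kinases, 10 further genes, included both lower and higher estimates. In spermatid-like cells of T against UC, 2 of the 10 were called, both lower, a share near the 16.5% of all genes called lower, and the list median was 0.07 against 0.06 over all genes. Tsks, the substrate of TSSK1 and TSSK2, was at 382, 332 and 344 CPM in T and at 604, 674 and 601 CPM in UC, a log2 difference of -1.18 (adjusted p = 1.68e-08). Pdpk1, which encodes the activating kinase of TSSK3, was at 96.2, 73.4 and 85.5 CPM in T and at 185, 207 and 183 CPM in UC, a log2 difference of -1.52 (adjusted p = 1.57e-08). Both genes were without overlap between the groups.

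Of the 8 partner genes that were not called, 7 had an adjusted p below 0.05. Tsacc, the cochaperone for TSSK6, was at -0.88 (adjusted p = 2.31e-08) and Odf2, a substrate of TSSK4, at -0.73 (7.61e-08). Tssk5 was at 0.74 (0.000172), with 38.7, 40.3 and 45.8 CPM in T and 17.8, 19.8 and 20 CPM in UC. H2afx, for the histone variant H2AX, was at 0.59 (0.00221), Spag16, of the central apparatus of the tail, at 0.45 (0.000742), and the HSP90 genes Hsp90ab1 and Hsp90aa1 at 0.30 (0.00555) and 0.15 (0.0395). Crem, for a transcription factor of spermatids, was at -0.00 (0.965).

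On cells matched on pseudotime none of the 10 partner genes was called in T against UC by edgeR, beside 3.89% of all genes, and Tsks was at -0.32 (adjusted p = 0.00583), Tsacc at -0.27 (0.00998), Odf2 at -0.22 (0.00564) and Pdpk1 at -0.24 (0.138). Against all VC-T libraries edgeR called none of the 10, with 5 at an unadjusted p below 0.05, and DESeq2 called Pdpk1. Against VC-T 2 and VC-T 3 without matching, Pdpk1 at -1.66, Tsks at -1.19 and Tsacc at -1.08 were called, beside 21.6% of all genes. In R against UC none of the 10 was called in spermatid-like cells by edgeR or DESeq2, with 7 at an unadjusted p below 0.05 by edgeR, and the list median was -0.21. Spag16 was at 379, 369 and 472 CPM in R and at 195, 178 and 246 CPM in UC, a log2 difference of 0.79 (adjusted p = 1.70e-06), and 5 partner genes had a lower estimate with an adjusted p below 0.05, from Hsp90aa1 at -0.34 (0.000679) to Hsp90ab1 at -0.22 (0.0447). In spermatozoa-like cells of R against UC none was called by edgeR or DESeq2, with 5 at an unadjusted p below 0.05 by edgeR, and Odf2 at -0.31 (0.00417) and Tsacc at -0.25 (0.0144) had an adjusted p below 0.05.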

How the data were processed

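Testes of 15 mice were profiled with the 10x Genomics 3′ v3.1 assay, 1 library each. The deposited matrices hold raw UMI counts per gene and barcode for mm10, made by the authors with Cell Ranger, which is given as version 3.0.0 in the submitters' notes and as 7.0.0 in the matrix headers. Whether intronic reads were counted is not given in the sources used here. The members, the partner list and the other lists were chosen with earlier results of these data known.

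Barcodes passed with 500 or more genes detected, 1000 or more UMIs and less than 30% of UMIs from mitochondrial genes, and per library the top 5.4% by Scrublet score were taken out as likely doublets. Clustering used 2000 variable genes, 30 principal components, 20 neighbours and Leiden at a resolution of 1.2 (scanpy 1.11.5). The members, the partner genes, Prm1, Prm2, Tnp1 and Tnp2 were left out of the variable genes, while Smcp and the other class markers were not. Diffusion pseudotime over germ cells was divided into 20 bins. A bin was used with at least 20 cells and a class with at least 10 cells per library. UMIs were summed per library and class and tested with edgeR 4.0.16 (R 4.3.3; TMM, quasi-likelihood, Benjamini-Hochberg), with only the 2 groups compared in each fit, or with DESeq2 1.42.0. The tests were tried on simulated counts first. Named were all 5 members, all 10 partner genes, and genes from the 5 most alike in profile for each member, at a mean of at least 10 CPM. T against UC and R against UC share the UC libraries. Same-numbered libraries moved together (every correlation of their deviations above 0.1) only in spermatocyte-like cells of T and UC (0.696, 0.398 and 0.120), and the labels give no shared batch or litter.

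Coding sequences and promoters were read from GENCODE vM21 and RefSeq on GRCm38. Alternatives were DESeq2, no filter on low counts, a minimum of 2000 UMIs, doublets kept, a resolution of 0.8, free RNA subtracted (estimated from Prm1, Prm2 and Smcp in spermatogonia-like cells at 5.38% to 41.1% of UMIs), cells matched on pseudotime, a replicate block, a fit of all 15 libraries, UC and VC-T pooled as controls, edgeR with RLE factors, and each library left out.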

Additional observations from a re-analysis of the deposited data

Results flagged for a closer look

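Over all spermatid-like cells, not matched on pseudotime, the difference of Tssk6 from vehicle was not the same at the end of dosing and 6 weeks later. The difference of T from VC-T minus the difference of R from VC-R was -3.40 on the log2 scale for Tssk6 (edgeR interaction, adjusted p = 0.0481). Of all genes, 7.02% were called, and 25.7% without VC-T 1. The same interaction for Hsp90aa1, an HSP90 gene, was 0.68 (adjusted p = 0.0481), and 0.88 (7.43e-05) without VC-T 1, a setting added after the data were seen. For the other members it was -1.06 for Tssk3 (0.0678), -0.59 for Tssk2 (0.133; -0.80 without VC-T 1), 0.50 for Tssk4 (0.164) and -0.03 for Tssk1. The T and VC-T mice were 10 weeks old and the R and VC-R mice 16 weeks, so time after dosing and age cannot be told apart. The stage mix differed too. From bin 11 on lay 5.80% to 8.11% of spermatid-like cells in T, 4.74% in VC-T 1, and 37.2% and 47.1% in VC-T 2 and VC-T 3. The shares were 46.5% to 60.2% in R and 39.6% to 41.9% in VC-R. The part of this mix in the interaction was not tested.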

How the results depend on the processing

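In T against UC the 3 called members in spermatid-like cells became 1 with free RNA subtracted and 1 with cells matched on pseudotime, and 2 at resolution 0.8 (Tssk2 at -0.88) and 2 with UC and VC-T pooled as controls (Tssk2 at -1.0). The count of 0 in spermatocyte-like cells of T against UC became 1 with DESeq2, without the filter on low counts, with doublets kept and with matched cells, 2 at resolution 0.8, 3 with the replicate block and 3 with all 15 libraries, and was 0 to 1 with single libraries left out. Against VC-T the count of 0 in spermatid-like cells became 2 with DESeq2, 1 with all 15 libraries, 3 with VC-T 2 and VC-T 3 alone, 1 with these matched on pseudotime, and 0 to 3 with single libraries left out. In spermatocyte-like cells the count of 0 against VC-T became 1 without the filter, 1 with matched cells, 1 with VC-T 2 and VC-T 3 alone, 1 with these matched, and 0 to 1 with single libraries left out. In R the count stayed 0 in all 99 alternatives. With free RNA subtracted, no member was tested in spermatocyte-like cells of R against UC, R against VC-R or T against UC. A count of 0 there could not have been otherwise. The block changed no other count of called members.

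Partner genes turned sign in T against UC spermatid-like cells with free RNA subtracted (H2afx -0.33, Hsp90aa1 -0.02, Hsp90ab1 -0.09) and with matched cells (Hsp90aa1 -0.16), in R against UC spermatozoa-like cells with doublets kept (Spag16 0.02), and in R against VC-R spermatozoa-like cells with free RNA subtracted (Hsp90ab1 -0.34). Genes called by edgeR and by DESeq2 numbered 0 and 1512 in T against VC-T spermatid-like cells, 116 and 485 in T against UC spermatocyte-like cells, 26 and 173 in T against VC-T spermatocyte-like cells, 261 and 126 in R against UC spermatozoa-like cells, and 831 and 551 in R against UC spermatid-like cells. The causes were not tested. Late bins of T hold few cells, which limits Tssk6, Tssk3 and Tssk2 there.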
